A study of Mus musculus with 10 samples.

Results

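Sprr1a, Sprr2a3, transglutaminase 2 and 6 large cytoskeletal linker genes of the plakin family (Eppk1, Ppl, Evpl, Plec, Dst and Macf1) were followed in heart muscle cells sorted after myocardial infarction. The 9 genes were chosen by symbol from the 56832 rows of the count table, and all 9 were among the 12115 genes with enough counts to be tested. Sprr1a was included because the sort is made on a reporter named for it, so its difference between the sorted groups is set by the design. The list was drawn up with earlier results of the same contrast known. The contrast between the sorted groups is therefore given for these genes as a description.

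All libraries came from Sprr1a-GFP mice, so the GFP− cells carry the reporter allele too, and the tag Hetz in the titles was taken to mean heterozygous. Mice were infarcted at 12 weeks of age and cardiomyocytes were isolated 5 days later. Each of 5 mice (17C1, 17C2, 21A4, 21A5 and 21A7) gave 1 GFP+ library, called border zone cardiomyocytes in the labels, and 1 GFP− library, called remote zone cardiomyocytes. The titles of the GFP+ libraries name a DAPI-negative and a DAPI-positive sort together, whereas those of the GFP− libraries name a DAPI-negative sort alone. DAPI is a DNA dye that enters cells with a leaky membrane, and this difference in gating cannot be told apart from the difference in GFP. No uninjured heart and no mouse without the reporter is among the samples.

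Small proline-rich (SPRR) proteins are precursors of the cornified envelope, the protein shell under the membrane of skin and other squamous cells. Transglutaminases join them to other envelope proteins by bonds between glutamine and lysine side chains. Envoplakin (Evpl) and periplakin (Ppl) are early scaffolds of that envelope. The plakin family as a whole ties intermediate filaments, actin and microtubules to junctions. In striated muscle, plectin (Plec) holds desmin filaments at Z-discs and the cell membrane. Sprr1a is known in cardiomyocytes as a gene induced by injury and by cytokines of the interleukin-6 family.

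The coding sequences of the 2 SPRR genes are shown for the glutamine and lysine codons that such cross-links use. They are given from GENCODE transcripts of mouse build GRCm38, 5′ to 3′, with in-frame glutamine and lysine codons in capitals, as bases 1 to 300 of 432 for Sprr1a and as all 249 bases for Sprr2a3.
Sprr1a: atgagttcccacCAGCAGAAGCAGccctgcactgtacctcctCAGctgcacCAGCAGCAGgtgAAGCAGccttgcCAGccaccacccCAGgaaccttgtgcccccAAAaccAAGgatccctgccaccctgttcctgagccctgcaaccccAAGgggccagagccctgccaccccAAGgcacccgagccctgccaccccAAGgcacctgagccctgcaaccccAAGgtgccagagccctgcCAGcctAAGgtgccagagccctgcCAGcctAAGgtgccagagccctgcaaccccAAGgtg
Sprr2a3: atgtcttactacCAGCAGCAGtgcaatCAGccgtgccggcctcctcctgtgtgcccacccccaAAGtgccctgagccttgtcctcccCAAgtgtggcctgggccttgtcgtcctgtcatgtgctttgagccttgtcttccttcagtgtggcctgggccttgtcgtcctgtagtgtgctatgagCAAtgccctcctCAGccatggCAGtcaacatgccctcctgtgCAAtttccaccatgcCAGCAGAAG
The Sprr1a sequence matched itself best at a spacing of 24 bases (62.99% of bases), and that of Sprr2a3 at 27 bases (51.8%). Of 144 Sprr1a codons 46 encode proline, 16 glutamine and 16 lysine. Sprr2a3 has 83 codons with 26 proline, 11 glutamine and 2 lysine codons. Proline makes up 31.94% and 31.33% of these 2 products, against 2.62% to 4.4% in the listed plakins and in transglutaminase 2.

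The copy number of these sequences bears on what the counts can resolve. The coding sequence of Sprr2a3 differs from that of each of its neighbours Sprr2a1 and Sprr2a2 at 3 of 249 bases. Of the 50-base stretches of the longest Sprr2a3 transcript 61.11% occur in another gene. Counts under Sprr2a3 may therefore belong to any of the 3 copies. None of the 50-base stretches of the longest Sprr1a and Tgm2 transcripts occurs in a transcript of another gene of that annotation. The reverse strand was not searched, and Tgm2 overlaps Rprd1b on the other strand. Rprd1b had 2261 counts in all 10 libraries together, beside 49039 of Tgm2, with means of 6.38 CPM in GFP+ and 12.0 CPM in GFP− libraries. Within Eppk1, which is built of near-identical repeat units, 29.91% of 50-base stretches in the coding sequence occur more than once, up to 3 times, as does this one.
Eppk1 unit: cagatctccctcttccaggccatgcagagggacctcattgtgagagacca
How reads with several matches were counted is not given in the sources used here, so the Eppk1 level may be understated in all libraries alike. Of the 50-base stretches of the longest Eppk1 transcript, a different base from the coding sequence, 5.95% occur in other genes. The overlapping neighbour of Eppk1, BC024139, had 2 counts in all 10 libraries together.

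The libraries held 12244373 to 38879965 counts, but mitochondrially encoded genes took 9.20% to 91.2% of them. Levels are given in CPM, counts scaled to a common library size after adjustment of the library totals by the TMM method. Cardiomyocyte markers were present in every library, with 10 listed genes summing to 3693 to 44711 CPM in GFP− and 9857 to 34656 CPM in GFP+ libraries. The 2 libraries of mouse 21A7 had the lowest cardiomyocyte sum of their group and the highest sums for fibroblast (12920 CPM in GFP−, 5433 CPM in GFP+) and mesothelial markers (210 and 458 CPM). Across the tested genes the log2 fold change had a median of −0.07. In bulk libraries such as these, fewer cells of a type and less RNA per cell cannot be told apart.

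All 8 genes other than Sprr1a had a positive log2 fold change in GFP+ cells, while 45.2% of all tested genes had one. Of these 8, Sprr2a3, Tgm2 and Eppk1 did not overlap between the groups, each GFP+ library lying above each GFP− library, as was also so for Sprr1a. Such a pattern was found in 1.54% of tested genes. For Sprr2a3, Tgm2 and Eppk1 it depends on the TMM scaling, with factors of 0.241 (GFP+) and 3.31 (GFP−) in mouse 21A7. That pair held 1693 and 7035 counts of Tgm2, 33 and 26 of Eppk1, and 18 and 37 of Sprr2a3. Its library totals were 38879965 and 16870349 counts. On totals alone the GFP+ library of 21A7 would be the lower of the pair for each of these genes. In edgeR's quasi-likelihood test 1 of the 8, Eppk1, was called higher at an adjusted p under 0.05, against 0.0825% of all tested genes, and 0 were called lower. With the mouse as a block Eppk1 was again the 1 called, against 0.685% of genes called higher and 0.173% called lower. In all genes 0 were called lower without the block (0%), though 409 fell below an unadjusted p of 0.05 on the lower side, and DESeq2 called 71 lower and limma voom 51. As these results were in view when the list was made, nothing is read from the members' share.

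**Figure D1:**
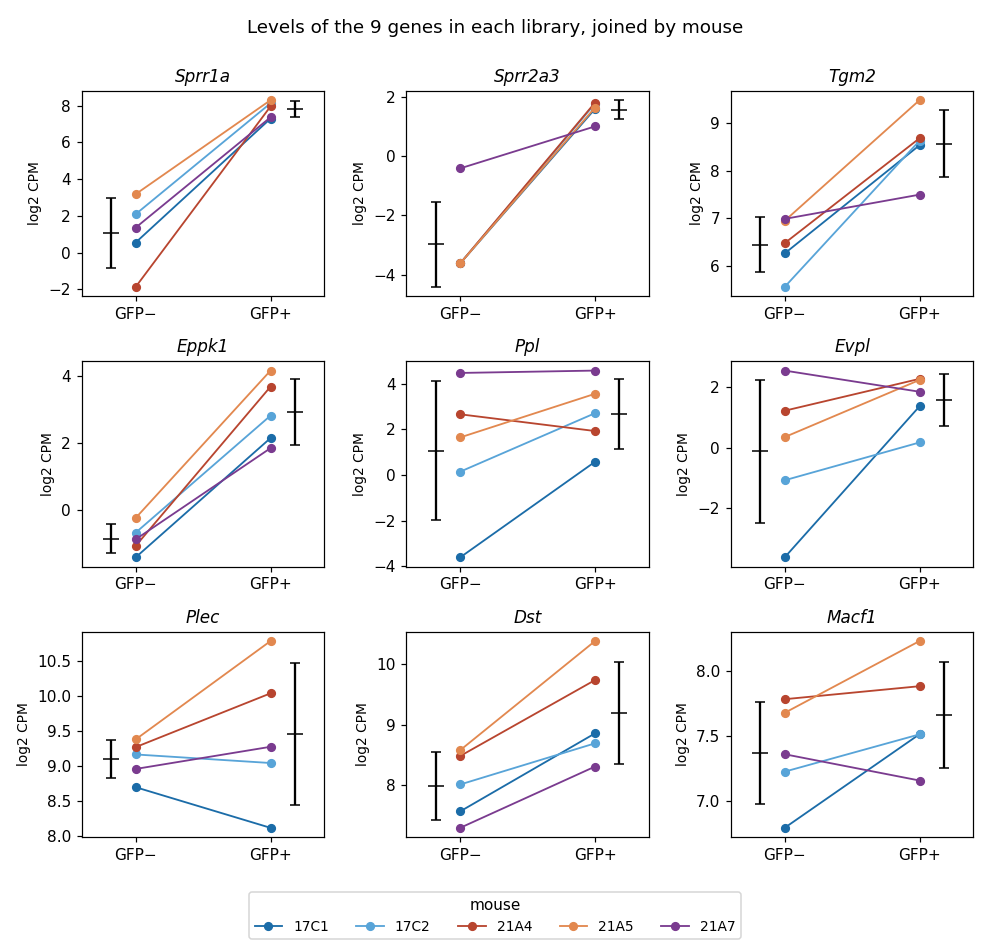
Each panel plots 1 gene, with log2 CPM (prior count 2) on the vertical axis and 1 point per library, lines joining the 2 libraries of a mouse and black bars giving the mean ± SD of 5 libraries. The GFP+ and GFP− points of Sprr1a, Sprr2a3, Tgm2 and Eppk1 do not overlap, while those of Ppl, Evpl, Plec, Dst and Macf1 do.

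Sprr1a, the reporter's namesake, had GFP+ levels of 158 (17C1), 282 (17C2), 250.2 (21A4), 317 (21A5) and 166 CPM (21A7). In the GFP− libraries of the same mice it was at 1.38, 4.17, 0.191, 8.98 and 2.48 CPM. The GFP+ libraries lay within a 2.01-fold range of each other, whereas the GFP− libraries differed 47.1-fold, with 10 to 406 counts. The 21A4 pair, with the lowest GFP− level, was 1311-fold apart, and the 21A5 pair, with the highest, 35.3-fold. In each mouse the GFP+ library was the higher, by 6.76 ± 1.82 log2 units (SD, n = 5). The sort sets this difference, so it is left out of the counts of genes called.

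The 250 bases before the Sprr1a start, from RefSeq on build GRCm38.p6 (chr3:92485882-92486131, minus strand), are shown because they belong to the gene on which the cells were sorted, with AP-1 motifs in capitals.
Sprr1a promoter: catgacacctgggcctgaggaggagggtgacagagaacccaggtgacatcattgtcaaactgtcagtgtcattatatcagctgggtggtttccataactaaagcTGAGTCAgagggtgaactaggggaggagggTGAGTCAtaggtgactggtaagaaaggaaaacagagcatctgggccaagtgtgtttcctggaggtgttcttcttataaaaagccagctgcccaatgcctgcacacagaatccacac
The sequence holds 2 matches to the AP-1 motif TGANTCA, both TGAGTCA, from 146 to 140 and from 116 to 110 bases before the start. Of 32851 promoter windows of this length 6.75% held at least 1 such match and 0.338% at least 2, on either strand with overlaps counted. The TEAD motif CATTCC (12.6% of windows), the STAT motif TTCNNNGAA (7.02%), the GATA motif AGATAA (9.99%) and the CArG box of SRF (1.47%) were not found in it. The Sprr2a3 window held 1 STAT match and none of the other 4 motifs. A Macf1 window held 1 TEAD match, and the 2 Dst windows held none of the 5. The table has promoters for these 4 of the 9 genes. A match of letters is a description of the sequence and does not show that a factor binds there.

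Sprr2a3 encodes another small proline-rich protein from the same gene cluster. Its GFP+ libraries held 27 (17C1), 35 (17C2), 43 (21A4), 66 (21A5) and 18 counts (21A7). Among GFP− libraries 4 held 0 counts, and that of 21A7 held 37. In GFP+ libraries this was 1.92 to 3.41 CPM, a far lower level than that of Sprr1a. Against a floor of 3 counts per GFP− library, the GFP+ level was at least 16.4-fold higher in 17C1, at least 14.1-fold in 17C2, at least 59.6-fold in 21A4 and at least 45.7-fold in 21A5. In 21A7 it was 2.87-fold higher. The log2 fold change of 4.23 ± 1.29 (SE) did not pass (edgeR adjusted p = 0.366; 0.10 with the mouse block). The GFP− library of 21A7, the only one of its group with Sprr2a3 counts, had the largest mesothelial marker sum of its group (210 CPM), whose part in the result was not tested.

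The other 13 SPRR genes on a fixed list were nearly silent. Of these 5 had 0 counts in all libraries, and none had enough counts to be tested. Sprr1b, another gene of the cluster, had 0 counts throughout. Sprr2d and Sprr2e had 19 and 20 counts in the GFP+ library of 21A7, and 0 in the other 4 GFP+ libraries. Sprr2k had 14 counts in the GFP− library of 21A7, and Sprr3 had 13 counts in that of 21A5 and 0 elsewhere. Sprr2a1 and Sprr2a2 held 2 and 6 counts in all.

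Transglutaminase 2 (Tgm2), the widely expressed tissue transglutaminase that also acts outside the cell on fibronectin and integrins, stood 2.15 ± 0.43 log2 units (SE) higher in GFP+ cells. It was at 369, 394, 409, 709 and 181 CPM in GFP+ cells from mice 17C1, 17C2, 21A4, 21A5 and 21A7. In the GFP− libraries it was at 77.1, 47.5, 89.5, 124 and 127 CPM in the same order. The groups did not overlap, and the narrowest pair was that of 21A7, at 1.42-fold, against 4.57-fold to 8.31-fold in the other 4 mice. The difference missed the threshold in both edgeR fits (adjusted p = 0.0996, and 0.0532 with the mouse block). With 1 mouse or library left out it passed in 2 of 15 fits, without mouse 21A7 (2.47, 0.0268) and without its GFP+ library (2.35, 0.0415), and missed in the others with an adjusted p of up to 0.594. With the block it passed in 1 of 5 such fits, without 21A7. It passed with DESeq2 (2.11, 0.000186) and limma voom (2.19, 0.00441), and was 0.98 (0.366) on library totals.

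Tgm2 is also expressed by endothelial cells and macrophages, so their markers were set beside it. All 10 endothelial markers were tested with edgeR and 0 passed in either direction (0 at an unadjusted p under 0.05, and 5 with the mouse block). Their summed level was 56.5 to 356 CPM in GFP+ and 85.8 to 613 CPM in GFP− libraries, with a median log2 fold change of −1.07. The 10 macrophage markers summed to 22.1 to 339 CPM in GFP+ and 24.1 to 740 CPM in GFP− libraries, with a median of −1.60. None of the 20 was at 0 in all libraries. Of the macrophage markers 0 passed without the mouse block (1 at an unadjusted p under 0.05). With the block 1 macrophage marker passed, as lower in GFP+ (7 at an unadjusted p under 0.05), and 0 endothelial markers did. A non-myocyte score was then formed from 39 fibroblast, macrophage, endothelial and mural markers. With this score as a covariate the Tgm2 log2 fold change was 2.36 (edgeR adjusted p = 0.0401). Mesothelial markers, with a median log2 fold change of 1.4, were not part of the score.

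Of 9 other transglutaminase genes 3 had 0 counts in all libraries and 1, F13a1, was tested. F13a1, the clotting factor XIII subunit that macrophages express, was lower in 5 of 5 mice, at 5.07 ± 7.82 CPM in GFP+ against 17.1 ± 15.5 in GFP− libraries (SD, n = 5). It did not pass (log2 fold change −1.76 ± 1.15, edgeR adjusted p = 0.713; −1.97 ± 0.54 and 0.149 with the mouse block). Tgm1, the enzyme that cross-links the envelope in skin, had 4, 0, 41, 22 and 64 counts in GFP− cells from mice 17C1, 17C2, 21A4, 21A5 and 21A7. In GFP+ libraries it had 10 counts in 21A7 and 0 in the other 4.

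Epiplakin (Eppk1), a plakin made almost wholly of plakin repeat domains that binds keratins and other intermediate filaments, was the 1 plakin called. Its GFP+ levels were 4.35 (17C1), 6.95 (17C2), 12.7 (21A4), 17.7 (21A5) and 3.52 CPM (21A7). The GFP− levels were 0.299, 0.551, 0.401, 0.774 and 0.470 CPM, from 5 to 35 counts. Every GFP+ library lay above every GFP− library, and the pairs were 7.49-fold (21A7) to 31.7-fold (21A4) apart. The log2 fold change was 4.16 ± 0.55 (SE), or 4.0 ± 0.44 with the mouse block, and it passed in both edgeR fits. It was 3.73 in the 17C mice, where it passed, and 4.39 in the 21A mice, where it did not. In the 17C mice Eppk1 was tested only through its GFP+ counts, with 5 and 7 counts in the GFP− libraries. With 1 mouse or 1 library left out it stayed between 3.72 and 4.38. It passed without mouse 21A7 or any 1 of the GFP− library of 21A5, the GFP− library of 21A7 and the GFP+ library of 21A7, and it did not pass without any other mouse or library (edgeR adjusted p from 0.0589 to 0.378). With the block it passed without 17C1 or 21A7 and did not pass without 17C2 (0.078), 21A4 (0.223) or 21A5 (0.119).

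The scaffold plakins of the cornified envelope, periplakin and envoplakin, were low. Their group means, at 9.45 ± 8.95 CPM in GFP+ and 6.51 ± 9.11 in GFP− libraries for Ppl and at 3.29 ± 1.56 and 1.92 ± 2.32 for Evpl (SD, n = 5), differed by less than the SD of either group. Ppl was at 1.41 (17C1), 6.48 (17C2), 3.73 (21A4), 11.8 (21A5) and 23.9 CPM (21A7) in GFP+ libraries. It was at 0, 1.02, 6.26, 3.05 and 22.2 CPM in the GFP− libraries of the same mice. It was the higher in GFP+ in 4 of 5 mice, and in both groups the 21A7 library was the highest. Evpl was at 2.50, 1.05, 4.76, 4.64 and 3.52 CPM in GFP+ and at 0, 0.394, 2.25, 1.19 and 5.77 CPM in GFP− libraries, in the order 17C1, 17C2, 21A4, 21A5 and 21A7. The groups overlapped for both genes. Neither passed, at log2 fold changes of 0.52 ± 1.09 for Ppl (edgeR adjusted p = 0.916) and 0.76 ± 0.94 for Evpl (0.856). Both turned negative with library totals as the scale (−1.58 and −1.02, where the median of all genes was −1.24). Without the GFP+ library of 21A7 Ppl was at −0.15.

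Mesothelial cells line the heart's surface and express simple epithelial genes, and 10 of their markers were set beside these 2 plakins. Their summed level was 1.32, 16.9, 40.7, 31.5 and 210 CPM in GFP− cells from mice 17C1, 17C2, 21A4, 21A5 and 21A7, the order of Ppl and Evpl among these libraries. In GFP+ libraries it was 122, 190, 131, 110 and 458 CPM, an order that neither plakin followed. The 21A7 library was the highest for the marker sum and for Ppl but not for Evpl, while the 21A5 library had the lowest marker sum beside 11.8 CPM of Ppl and 4.64 of Evpl, each below 1 other GFP+ library. The median log2 fold change of the 10 markers was 1.4, and 0 passed with edgeR in either fit (2 at an unadjusted p under 0.05, and 8 with the block). In the 17C mice alone 6 of the 10 passed as higher. These entered that test through their GFP+ counts, with 0 to 4 counts in the GFP− library of 17C1. None of them was at 0 in all libraries. Keratinocyte markers summed to 1.18 to 34.9 CPM, with Krt5 and Krt1 at 0 counts throughout. The part of these cells in the Ppl and Evpl levels was not tested.

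**Figure D2:**
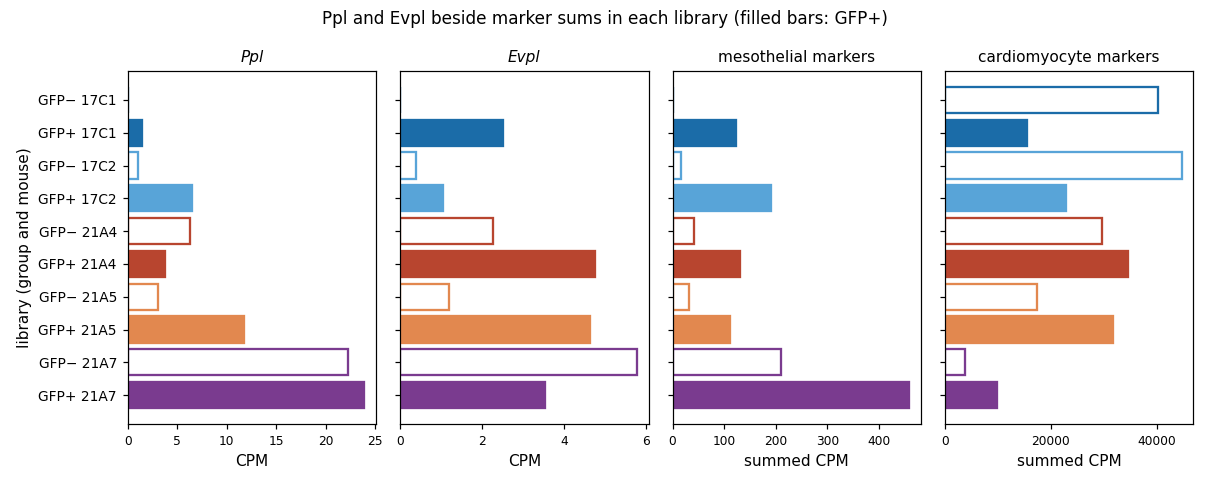
Horizontal bars give, for each of 10 libraries (open bars GFP−, filled bars GFP+, coloured by mouse), the CPM of Ppl and Evpl and the summed CPM of 10 mesothelial and 10 cardiomyocyte markers, each on its own linear axis. The GFP− library of 21A7 has the longest Ppl, Evpl and mesothelial bars of its group (22.2, 5.77 and 210 CPM) and the shortest cardiomyocyte bar (3693 CPM).

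Plectin (Plec) and the 2 spectraplakins Dst (dystonin, also called BPAG1) and Macf1 (also called ACF7) were the most abundant of the 6 plakins on the list. Dst was at 464 (17C1), 414 (17C2), 856 (21A4), 1340 (21A5) and 317 CPM (21A7) in GFP+ libraries. It was at 189, 258, 358, 382 and 157 CPM in the GFP− libraries. It was higher in 5 of 5 mice, by 1.60-fold to 3.50-fold, but the groups overlapped, since the GFP+ library of 21A7 lay below 2 GFP− libraries. Its log2 fold change of 1.34 ± 0.48 (SE) did not pass (edgeR adjusted p = 0.493; 0.104 with the mouse block), although it did in the 17C mice alone (0.98, 0.0395).

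Plec was at 277, 526, 1049, 1759 and 618 CPM in GFP+ and at 414, 573, 616, 665 and 496 CPM in GFP− libraries, in the order 17C1, 17C2, 21A4, 21A5 and 21A7. It was lower in the GFP+ library of both 17C mice and higher in that of all 3 21A mice. The GFP− libraries were alike, within 1.60-fold, while the GFP+ libraries spanned 6.34-fold. The log2 fold change over all mice was 0.61 ± 0.48 (edgeR adjusted p = 0.762). With library totals as the scale it was −0.37, above the median of all genes on that scale. Macf1 was at 183, 183, 236, 300.3 and 143 CPM in GFP+ and at 111, 150, 220, 205 and 164 CPM in GFP− libraries. It was higher in GFP+ in 4 of 5 mice, by at most 1.65-fold, with a log2 fold change of 0.30 ± 0.32 (0.826) that was −0.86 on library totals.

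**Figure D3:**
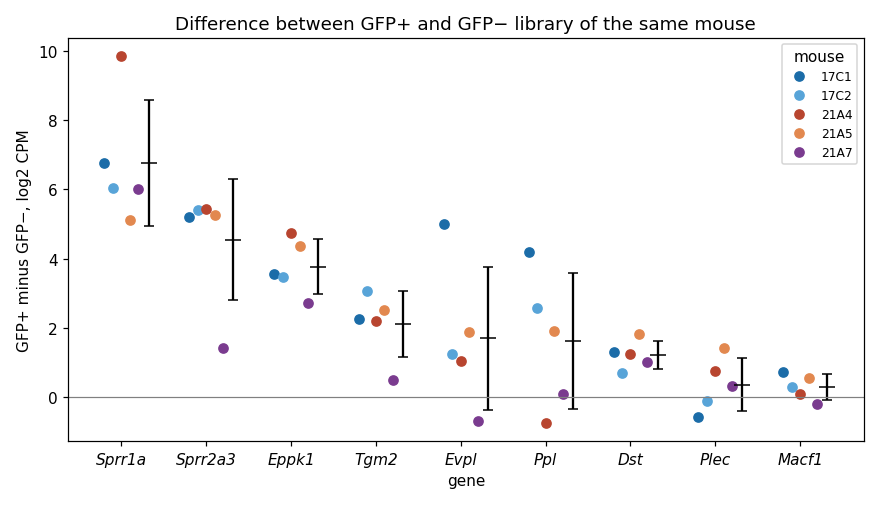
The vertical axis gives the log2 CPM of the GFP+ library minus that of the GFP− library of the same mouse, 1 coloured point per mouse and gene, with black bars for the mean ± SD of 5 mice. Sprr1a, Sprr2a3, Eppk1, Tgm2 and Dst lie above 0 in 5 of 5 mice, and Plec lies below 0 in the 17C mice and above 0 in the 21A mice.

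The difference of the GFP effect between the 17C and 21A mice was tested across all genes, since the identifier series differ in the wording of their titles. Of the 9 genes 0 passed (edgeR adjusted p from 0.406 to 0.929), and of all genes 0 passed (0%), with 1713 at an unadjusted p under 0.05. On library totals, a scale on which 1500 genes passed, Ppl (−5.10, 0.00531) and Evpl (−4.64, 0.0409) did. For Plec the effect was 1.24 ± 0.72 log2 units larger in the 21A mice (adjusted p = 0.433), or 1.18 (0.143) with the mouse as block, a fit that called 923 genes. For Ppl and Evpl the difference was −2.72 ± 1.72 and −2.75 ± 1.45. In the 17C mice alone Tgm2 and Dst were called higher and 0 members lower, against 4.61% and 4.92% of 11107 genes. Eppk1 and Sprr2a3 were called higher there too, but both were tested only through their GFP+ counts. In the GFP− libraries of 17C1 and 17C2 Eppk1 had 5 and 7 counts, and Sprr2a3 had 0 in both. In the 21A mice alone 0 of the 9 and 0% of 13221 genes were called by edgeR, with 1621 at an unadjusted p under 0.05.

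Per kilobase of merged exons, Sprr1a was the most abundant of the 9 in GFP+ cells, at 291 ± 87.4 CPM per kb (SD, n = 5). Tgm2 (89.5 ± 41.2), Plec (46.7 ± 32.1), Dst (16.5 ± 10.3) and Macf1 (6.65 ± 1.94) followed, each overlapping the next in this order within 1 SD, while Sprr1a lay above Tgm2 by more than that. Ppl, Sprr2a3, Eppk1 and Evpl lay between 0.516 and 1.37 CPM per kb, all within 1 SD of each other except Sprr2a3 (1.01 ± 0.207) and Evpl (0.516 ± 0.244). In GFP− cells the order was Plec (30.5 ± 5.47), Tgm2 (20.2 ± 7.23), Dst (6.53 ± 2.42), Macf1 (5.41 ± 1.39) and Sprr1a (4.27 ± 4.25), with Plec and Tgm2, and the last 3, within 1 SD of each other. Eppk1 (0.0405 ± 0.0146) and Sprr2a3 (0.0464 ± 0.104) were the lowest, the mean of Sprr2a3 coming from the 21A7 library alone. Merged exons of Dst, at 41155 bases, include isoforms of other tissues, so its level per kilobase is understated. Those of Sprr2a3 span 2883 bases beside a coding sequence of 249, so its level and its place in the order may be understated too. Desmoplakin (Dsp), the plakin of the desmosome that was not on the list, reached 90.0 ± 70.0 CPM per kb in GFP+ and 64.4 ± 30.2 in GFP− cells. Its fold change was 0.48 ± 0.63 on the log2 scale (edgeR adjusted p = 0.866), at −1.05 in the 17C mice, where it passed as lower (0.0491), and 1.23 in the 21A mice (0.584).

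Among the 5 GFP+ libraries, those of 21A5 and 21A7 held most of the members' extremes. The 21A5 library was the highest for 6 of the 9 genes (Sprr1a, Tgm2, Eppk1, Plec, Dst and Macf1), and the 21A7 library the lowest for 5 (Sprr2a3, Tgm2, Eppk1, Dst and Macf1). The mitochondrial share of counts was 35.7% in the first of these libraries, the smallest of the group, and 91.2% in the second, the largest. Their cardiomyocyte marker sums were 31682 and 9857 CPM. The share of all tested genes with these extremes was not counted, so nothing is read from them about the members. Des and Clu, which are no members, were likewise highest in the GFP+ library of 21A5 and lowest in that of 21A7. Krt18 and Vim were instead highest in the GFP+ library of 21A7. The part of library composition in this order was not tested.

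The genes whose log2 CPM ran most like Sprr1a over the 10 libraries were Tnnt3 (fast skeletal troponin T, Pearson r = 0.963), Serpinb1a (a serine protease inhibitor, 0.948), Nppa (atrial natriuretic peptide, 0.935), Ro60 (an RNA-binding protein, 0.933) and Star (mitochondrial cholesterol import, 0.928). For Eppk1 they were Pfkp (a phosphofructokinase, 0.988), Clu (the secreted chaperone clusterin, 0.983), Rtn4 (an endoplasmic reticulum shaping protein, 0.957), Gpx3 (a secreted glutathione peroxidase, 0.951) and Serpinb1a (0.948). These values describe 10 libraries in 2 sorted groups, and the difference between the groups makes up much of each. Within the 5 GFP+ libraries Clu followed the order of Eppk1, with 4236 CPM in 21A5, 3227 in 21A4, 1537 in 17C2, 1482 in 17C1 and 635 in 21A7. Ro60 was at 15.2 to 18.5 CPM in GFP+ and 7.77 to 8.97 CPM in GFP− libraries, close to constant within each group.

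Partners of the plakins were taken from fixed lists, chosen like the 9 genes with earlier results known. Among the intermediate filament genes, all 9 tested had a positive log2 fold change, with a median of 1.80, where 45.2% of all genes had a positive one. In edgeR 0 passed without the mouse block (4 at an unadjusted p under 0.05). With it 1 passed (8 at an unadjusted p under 0.05), against 0.685% of all genes. That gene was Krt18, a simple epithelial keratin, at 49.2 ± 7.66 CPM in GFP+ against 4.20 ± 5.90 in GFP− libraries (SD, n = 5). Its difference was 3.53 ± 0.82 log2 units (SE; edgeR adjusted p = 0.165), or 4.43 ± 0.70 with the block (0.0376), which it passed without mouse 17C1 or 21A7 and not without 17C2 (0.139), 21A4 (0.242) or 21A5 (0.158). Without the block it passed with limma voom (4.39, 0.000275) and with no filter on low counts (3.49, 0.0459). Mesothelial cells also express simple keratins. Beside Krt18 and the other 3 tested keratins (Krt8, Krt14 and Krt19), the mesothelial marker sum was 110 to 458 CPM in GFP+ and 1.32 to 210 CPM in GFP− libraries, and its part in them was not tested. Krt19 is both on this list and among the mesothelial markers, and stood at 47.1 ± 35.3 against 7.95 ± 11 CPM without passing (block adjusted p = 0.0966). Desmin (Des), the muscle filament that plectin anchors, was at 4555 ± 2835 against 924 ± 549 CPM and higher in 5 of 5 mice (2.49 ± 0.58 with the block, edgeR adjusted p = 0.10). Syncoilin (Sync), a partner of desmin, was at 17.5 ± 7.12 against 6.73 ± 2.96 CPM (1.4 ± 0.32, 0.0966). Vimentin (Vim), the filament of mesenchymal cells, was at 523 ± 314 against 483 ± 424 CPM.

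Of 10 tested desmosome and hemidesmosome genes 6 had a positive log2 fold change, where 45.2% of all genes had one. In edgeR 0 passed without the block (1 at an unadjusted p under 0.05). With it 1 passed (3 at an unadjusted p under 0.05), against 0.685% of all genes. It was Cd151, a tetraspanin that holds laminin-binding integrins, at 136 ± 51.6 CPM in GFP+ against 45.5 ± 18.6 in GFP− libraries (block log2 fold change 1.59 ± 0.22, edgeR adjusted p = 0.0265; 0.173 without the block). It also passed with DESeq2 (0.00638) and limma voom (0.00765). In the block fit it passed without mouse 17C1 or 21A7 and not without 17C2 (0.117), 21A4 (0.242) or 21A5 (0.123). Perp, a desmosome membrane protein, and plakophilin 2 (Pkp2) were higher in 5 of 5 mice, at block log2 fold changes of 1.32 ± 0.26 (0.0697) and 1.29 ± 0.40 (0.188). Plakoglobin (Jup) was at 0.41 ± 0.31 (0.588). The list's median was 0.50 against −0.07 over all genes.

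Among 14 tested partners of plectin at the muscle cell membrane 11 had a positive log2 fold change, where 45.2% of all genes had one, with a median of 0.40. In edgeR 0 passed without the block (3 at an unadjusted p under 0.05). With it 1 passed (5 at an unadjusted p under 0.05), against 0.685% of all genes called higher. Itga7, the laminin-binding integrin of muscle, was at 196 ± 76.2 CPM in GFP+ against 68.0 ± 31.7 in GFP− libraries (block 1.58 ± 0.24, edgeR adjusted p = 0.0373; 0.321 without the block). It also passed with DESeq2 (0.0466) and limma voom (0.0197). In the block fit it passed without mouse 17C1 and not without 17C2 (0.139), 21A4 (0.242), 21A5 (0.158) or 21A7 (0.0605). Dystrophin (Dmd, block 1.04 ± 0.24, 0.0975) and integrin β1 (Itgb1, 0.91 ± 0.29, 0.197) were higher in 5 of 5 mice without passing. Dystroglycan (Dag1) was at 0.20 ± 0.29 (0.800).

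The linkers of spectraplakins to microtubules and the nucleus had a median of −0.16, and 0 of 16 tested genes passed with edgeR in either fit (0 at an unadjusted p under 0.05, and 3 with the block). The microtubule end-binding genes Mapre3 and Mapre2 were at block log2 fold changes of 0.88 ± 0.36 and 0.62 ± 0.26, and emerin (Emd), of the nuclear envelope, at 0.63 ± 0.27 (edgeR adjusted p from 0.297 to 0.309). Clasp1 and Golga4 were at −0.04 ± 0.37 and −0.15 ± 0.35. Of 14 Tgm2 binding proteins and substrates 0 passed with edgeR in either fit, with a median of 0.12 (2 at an unadjusted p under 0.05, and 4 with the block). Osteopontin (Spp1), a secreted substrate of the enzyme, was lower in 5 of 5 mice, at 22.2 ± 24.9 against 100.2 ± 94.1 CPM (block −2.04 ± 0.44, 0.0792). Lrp1, a scavenger receptor, was also lower in 5 of 5 mice (block −1.04 ± 0.40, 0.271) and fibronectin (Fn1) in 4 of 5 (−1.06 ± 0.52, 0.384), in libraries whose fibroblast marker sum had a median of 1852 CPM in GFP+ and 6900 CPM in GFP−.

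Of 20 other envelope proteins 19 were in the table, 9 of them at 0 counts in all libraries, and 3 were tested. With edgeR 0 passed in either fit over all mice (1 at an unadjusted p under 0.05, and 2 with the block). S100a10, a partner of annexin A2, was at 86.1 ± 41.0 CPM in GFP+ against 23.3 ± 21.4 in GFP− libraries and higher in 5 of 5 mice (block 2.21 ± 0.75, edgeR adjusted p = 0.217). S100a11 was at 57.9 ± 14.2 against 28.7 ± 28.0 CPM (1.78 ± 0.68, 0.264) and Anxa1 at 36.2 ± 31.7 against 27.8 ± 28.2 CPM (0.82 ± 0.62, 0.592). All 3 are widely expressed outside skin, and all 3 passed as higher in the 17C mice alone, where 4.61% of all genes did. So did 6 of the 10 mesothelial markers, which entered that test through their GFP+ counts. Crct1, an untested gene of this list singled out after its values were seen, had 86 counts in all. It was at 0.107 to 4.13 CPM in GFP+ and 0 to 0.0598 CPM in GFP− libraries. The lowest GFP+ and the highest GFP− value rest on so few reads that their order depends on the TMM scaling.

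**Figure D4:**
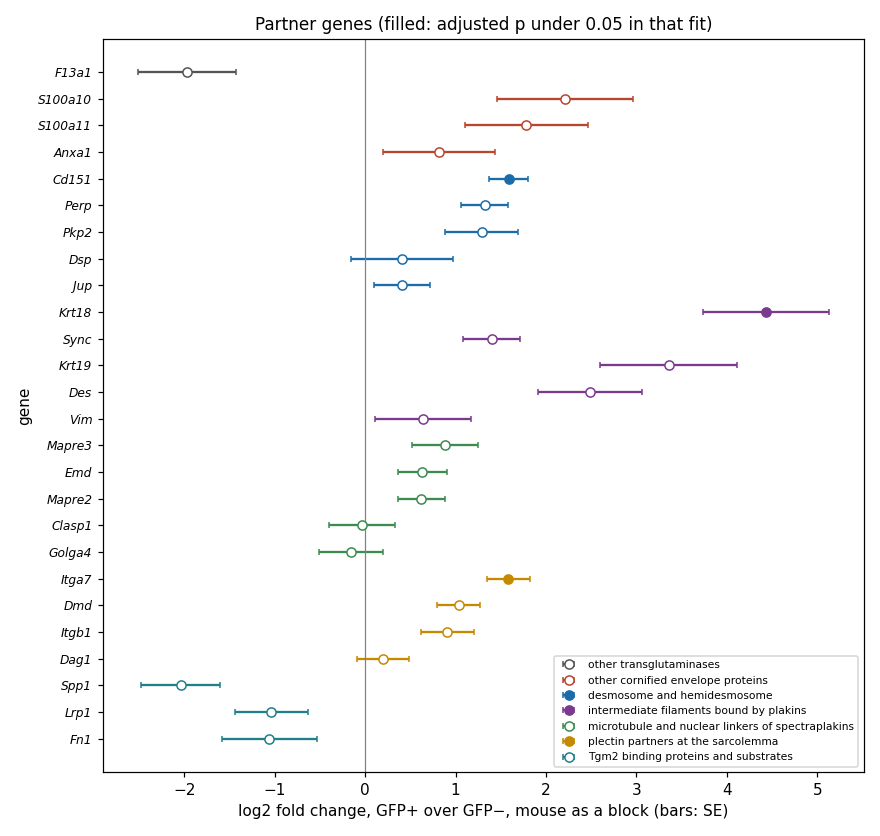
The horizontal axis gives the log2 fold change of GFP+ over GFP− cells with the mouse as a block, bars the SE, 1 row per named partner gene and 1 colour per list, filled points marking an adjusted p under 0.05. Cd151, Krt18 and Itga7 are the 3 filled points, at 1.59, 4.43 and 1.58.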

How the data were processed

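The authors deposited 1 table of whole-number read counts per gene for 10 libraries, not normalized. Per the labels' protocols, total RNA was amplified with SMARTer chemistry and made into Nextera XT libraries, which carry no strand mark, so reads from the stretch that a gene shares with one on the other strand (Tgm2 and Rprd1b) cannot be assigned by strand. Tools named in the submitters' processing notes are STAR 2.7.9a, fastp 0.23.1, featureCounts and Subread 2.0.1, with build GRCm39. The annotation release and how reads with several matches were treated are not stated there. The members, lists and tests were chosen with earlier results of these data known.

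The main test was edgeR's two-sided quasi-likelihood F-test (edgeR 4.0.16, R 4.3.3), with TMM scaling, the filterByExpr filter and Benjamini-Hochberg adjustment over all 12115 genes tested; the scripts were checked on simulated data first. Standard errors are the log2 fold change over the square root of F. Log2 CPM uses a prior count of 2. Libraries pair by the animal identifier in their titles; deviations from group means of same-mouse libraries correlated across genes at r = 0.0741 (21A5) to 0.637 (21A7). The fit without pairing was primary and the mouse block an alternative, beside DESeq2 1.42.0, limma 3.58.1 voom, other scalings and filters, and omissions. Mice are separate animals, and 0 pairs of libraries were identical.

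Named genes are all 9 members, in each partner list at most 3 genes leading by adjusted p and at most 2 abundant ones that did not pass, and the 5 genes most correlated with Sprr1a and with Eppk1 among 4700 named genes of at least 10 CPM. Lengths and coding sequences came from GENCODE M21 (GRCm38) and promoters from RefSeq (GRCm38.p6), matched by symbol; no coordinates of the count table's own build were used.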

Additional observations from a re-analysis of the deposited data

Results flagged for a closer look

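In the group of 5 GFP+ libraries, Sprr2a3 in the 21A7 library stood apart from the rest, at 1.00 log2 CPM against 1.59 in the nearest library. In the GFP− group the 21A7 library was again apart, as the highest at −0.41 log2 CPM, with the other 4 libraries at 0 counts (−3.62 on this scale, set by the prior count). Among 18 such groups (9 genes in 2 groups) these 2 were marked by Dixon's ratio. Chance alone marks about 1 in 20 groups, a rate that does not apply to the GFP− group, where 4 tied values make the ratio 1 for any other value. Plec moved in opposite directions in the 2 identifier series, lower in GFP+ in both 17C mice and higher in all 3 21A mice, and the mean difference between GFP+ and GFP− libraries was 1.18 log2 units larger in the 21A mice. The test of that difference across all genes did not pass (edgeR adjusted p = 0.433).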

How the results depend on the processing

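The main fit without pairing called 10 genes. The count was 241 with DESeq2, 336 with limma voom, 635 on library totals, 38 with no filter, 19 with a stricter filter, 104 with the replicate block pairing libraries of a mouse, 47 with a non-myocyte score as covariate, 1059 in the 17C mice alone and 0 in the 21A mice alone. It stayed at 10 with DESeq2's size factors in edgeR and with mitochondrially encoded genes removed. With 1 mouse or library left out it ranged from 0 to 58, and with the block as well from 0 to 173 (173 without 17C1, 0 without 17C2, 1 without 21A4, 6 without 21A5, 71 without 21A7). For the difference between the 17C and 21A mice, where 0 genes passed, the nested replicate block called 923, library totals 1500, and omissions 0 to 552. The block changed no call among the 9 members.

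On library totals, where the median of all genes was −1.24, direction turned for Ppl (−1.58), Evpl (−1.02), Plec (−0.37), Macf1 (−0.86), S100a11 (−0.77), Anxa1 (−1.90), Dsp (−0.13), Jup (−0.37), Vim (−1.88), Emd (−0.39), Mapre2 (−0.23), Golga4 (−0.96), Itgb1 (−0.25) and Dag1 (−0.71). Of these 14, 11 lay above that median, all but Ppl, Anxa1 and Vim. Direction also turned with voom for Clasp1 (0.0014) and Golga4 (−0.33), for Golga4 with the stricter filter (−0.013) and the block (−0.15), and with the non-myocyte score for Lrp1 (0.10) and Fn1 (0.42). In the 17C mice alone Plec (−0.28), Dsp (−1.05), Jup (−0.10), Golga4 (−1.06) and Dag1 (−0.40) turned, and in the 21A mice alone Anxa1 (−0.025), Vim (−0.23) and Clasp1 (0.58). With 1 mouse or library left out Vim ranged from −0.32 to 0.60, Clasp1 from −0.45 to 0.14, Dsp from −0.0159 to 0.79, Golga4 from −0.35 to 0.25, Ppl from −0.15 to 1.81 and Anxa1 from −0.32 to 1.08. With the block as well, Clasp1 ranged from −0.31 to 0.26, with 0.18 without 17C2, and Golga4 from −0.39 to 0.11, with −0.20 without 21A4 and −0.38 without 21A7. The cause was not tested. Sprr2a3 had 0 to 66 counts a library and Eppk1 5 to 385, which limits both.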
